A study of Mus musculus with 15 samples.

Results

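Transcript levels of splicing and RNA-binding factors were followed in the gastrocnemius muscle of old mice on caloric restriction (old CR), old mice and young mice. The members were taken by gene symbol, as all probe sets annotated to a single gene whose symbol starts with Hnrnp, Srsf, Snrp, Sf3a or Sf3b, or with the older prefixes Hnrp or Sfrs. This gave 115 of the 22626 probe sets tested, for 44 of the 12393 genes with a probe set of their own, and no member was left out for a low signal. A probe set is a group of short probes that read 1 transcript region, so a gene can be read by several. The hnRNP genes held 50 probe sets of 18 genes, the SR proteins 28 of 9, the SF3 subunits 22 of 9 and the snRNP core proteins 15 of 8. The name snRNP core stands here for every symbol that starts with Snrp, so this family also holds proteins of a single snRNP, such as Snrpb2. Another 14 probe sets carry a member symbol beside that of a predicted gene, a pseudogene or an overlapping gene, and were left out. Of these, 1, shared by Snurf and Snrpn, passed the test below, in old CR against old muscle.

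All mice were male C57BL/6NHsd, an inbred strain, housed 1 to a cage, with 5 animals a group and 1 array per animal. The old CR mice were 25 months old and had lifelong CR, with 26% fewer kcal than the normal diet but nearly the same supply of protein, vitamins and minerals. The old mice were 25 months old and the young mice 5 months old, both on the normal diet of 84 kcal per week, which is itself below free feeding. There was no young CR group. The comparison of old with young muscle asks about age on the normal diet, that of old CR with old muscle about diet at 1 age, and that of old CR with young muscle joins both. Poly(A)+ RNA of whole muscle was hybridised to the MOE430A array of Affymetrix. Values are linear intensities, a log2 difference of 1 is a doubling, and a probe set was called when its p-value, adjusted over all probe sets tested, was under 0.05.

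Splicing removes introns from pre-mRNA in the spliceosome, which is built on each intron from small nuclear ribonucleoproteins (snRNPs) and many other proteins. The Sm proteins form a ring on the RNA of most snRNPs, and the SF3a and SF3b complexes belong to the U2 snRNP, which recognises the branch point near the end of the intron. SR proteins bind exons and mostly favour their inclusion, whereas hnRNPs coat the transcript and often oppose it, and both groups also act in export, stability and translation of mRNA. Muscle is known for extensive alternative splicing, and several of these factors regulate their own mRNA through alternative exons.

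Promoters are shown for the member genes that were called in a comparison, since these genes carry the results, as the 250 bases before the first transcription start in RefSeq (mouse build GRCm38.p6, read 5' to 3' on the strand of the gene). Of the 44 genes, 39 were matched to a promoter, and of the 6 called genes 5 were, all but Sf3b4. Capitals mark CCAAT boxes (CCAAT or ATTGG), GC boxes (GGGCGG or CCGCCC, which may overlap) and the ETS core (CCGGAA or TTCCGG). Hnrnpa2b1 lies at chr6:51469895-51470144 on the minus strand, Hnrnpr at chr4:136310692-136310941 on the plus strand, Sf3b2 at chr19:5295458-5295707 on the minus strand, Srsf10 at chr4:135855821-135856070 on the plus strand and Srsf2 at chr11:116853095-116853344 on the minus strand.
Hnrnpa2b1: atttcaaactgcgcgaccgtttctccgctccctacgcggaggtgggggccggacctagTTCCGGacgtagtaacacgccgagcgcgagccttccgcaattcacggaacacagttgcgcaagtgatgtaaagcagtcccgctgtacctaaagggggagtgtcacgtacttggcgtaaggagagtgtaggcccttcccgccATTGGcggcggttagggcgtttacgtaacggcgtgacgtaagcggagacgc
Hnrnpr: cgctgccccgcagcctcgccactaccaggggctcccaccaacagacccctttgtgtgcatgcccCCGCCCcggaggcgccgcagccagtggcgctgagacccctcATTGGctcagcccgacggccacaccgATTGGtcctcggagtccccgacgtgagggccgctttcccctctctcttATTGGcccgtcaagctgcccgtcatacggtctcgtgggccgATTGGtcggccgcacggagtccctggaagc
Sf3b2: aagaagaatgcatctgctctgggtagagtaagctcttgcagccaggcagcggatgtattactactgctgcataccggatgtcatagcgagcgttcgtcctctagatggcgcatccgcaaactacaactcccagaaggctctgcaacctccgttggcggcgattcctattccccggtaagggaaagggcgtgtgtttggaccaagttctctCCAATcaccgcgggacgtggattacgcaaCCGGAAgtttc
Srsf10: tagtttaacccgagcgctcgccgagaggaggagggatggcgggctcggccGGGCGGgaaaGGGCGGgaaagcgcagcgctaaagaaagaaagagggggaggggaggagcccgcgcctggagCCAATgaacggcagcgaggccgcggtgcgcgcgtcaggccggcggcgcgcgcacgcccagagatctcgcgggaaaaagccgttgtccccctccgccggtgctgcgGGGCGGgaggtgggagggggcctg
Srsf2: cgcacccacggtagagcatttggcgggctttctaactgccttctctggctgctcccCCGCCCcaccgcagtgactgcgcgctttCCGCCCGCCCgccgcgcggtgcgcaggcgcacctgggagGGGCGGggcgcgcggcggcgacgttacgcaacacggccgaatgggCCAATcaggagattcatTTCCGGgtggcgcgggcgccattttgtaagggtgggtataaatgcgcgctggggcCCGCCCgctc

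Each of these 5 promoters held at least 1 CCAAT box, and that of Hnrnpr held 4. Over the 39 member promoters 18 held one, or 46.2%, beside 34.5% of all 27025 promoters of the same length. The ETS core was in 21 of 39 member promoters (53.8%) and in 12.3% of all promoters, and the GC box in 26 (66.7%) and in 33.0%. The TATA box (TATAAA or TTTATA) was in 4 of 39 (10.3%) and in 13.0% of all promoters, and CACGTG in 1 (2.56%) and in 6.04%. Member promoters were richer in GC, with a median of 60.4% against 52.0%, and held a median of 19 CG dinucleotides against 6. Among promoters with 19 or more CG dinucleotides, 14 of 24 members and 25.2% of 5283 promoters held the ETS core. The GC box was there in 17 of these 24 members and in 80.0% of the promoters, so it was not more frequent among members. For the TATA box it was 3 of 24 and 2.88%, for the CCAAT box 9 and 30.2%, and for CACGTG 1 and 10.1%. By family, the ETS core was in 6 of 7 SF3 promoters, 5 of 7 snRNP core promoters, 5 of 9 SR protein promoters and 5 of 16 hnRNP promoters. These matches describe letters in the window and were not tested.

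The arrays had been scaled to 1 common mean, correlated with each other at 0.906 to 0.952 and held no duplicates. The 9 fast muscle fibre markers were all measured and summed to 217752 to 322732 in old CR, 199911 to 271096 in old and 253114 to 290072 in young muscle, so the genes that define fibres of the labelled muscle were present in every group. The 5 fibroblast markers summed to 12198 to 15347 in old CR, 14364 to 19766 in old and 16455 to 26262 in young muscle, and the 4 measured B and plasma cell markers to 571 to 3216, 1921 to 6127 and 1351 to 3078. Of these 4, Ighm was the brightest by its mean. In old CR against old muscle Ighm gave -1.48 and Jchain -1.67, Jchain without overlap (limma adjusted p = 0.053). Cd79a gave 0.23 and Cd79b 0.44. Jchain was also higher without overlap in old than in young muscle (1.84, limma adjusted p = 0.094). The 5 macrophage markers summed to 3311 to 4989 in old CR, 4860 to 7219 in old and 2976 to 7413 in young muscle, and the 3 measured adipocyte markers to 7411 to 11339, 10356 to 15910 and 6167 to 12526, with median log2 differences of -0.18 and -1.19 in old CR against old muscle and no marker called. Among all marker lists, old CR against old muscle had the fibre gene Myh1 called higher (0.52, limma adjusted p = 0.030) and the endothelial gene Vwf called lower (-1.02, limma adjusted p = 0.018), both without overlap. The other endothelial markers went both ways, with Pecam1 higher without overlap (0.79, limma adjusted p = 0.053), Tek at 0.15, Kdr at -0.04 and Cdh5 at -0.18. In old CR against young muscle 1 marker was called, the fibroblast gene Col1a2, lower without overlap (-1.49, limma adjusted p = 0.047), while Lum of that list gave 0.58. The part of these markers in the members' values was not tested. Control probe sets at the 3' and 5' ends of Gapdh and Actb give a measure of RNA or labelling quality, in which a higher 3' minus 5' log2 difference means relatively less signal at the 5' end. For Gapdh it was -0.21 ± 0.12 in old CR, 0.25 ± 0.10 in old and -0.04 ± 0.19 in young muscle, and for Actb -0.38 ± 0.09, 0.01 ± 0.11 and -0.32 ± 0.09 (SD, n = 5). Old CR differed from old muscle for both genes (two-sided exact permutation p = 0.00794, as low as 5 against 5 arrays can give, adjusted p = 0.0159 over 6 tests). Old differed from young muscle for Actb (exact permutation p = 0.00794, adjusted p = 0.0159) but not for Gapdh after adjustment (exact permutation p = 0.0397, adjusted p = 0.0595). Old CR against young gave exact permutation p-values of 0.127 for Gapdh and 0.349 for Actb. Averaged over both genes, the difference was above 0 on the 5 old arrays and on young replicate 3 only. Since old CR and old arrays did not overlap in this measure, it and the diet cannot be told apart, and values that move with it are given below.

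In old CR against old muscle, 7 of the 115 member probe sets of 6 genes were called, or 6.09%, beside 4.87% of all probe sets tested. Hnrnpr, Hnrnpa2b1, Sf3b2 and Srsf10 were higher in old CR by 5 probe sets (4.35%, against 2.7% of all probe sets), and Srsf2 and Sf3b4 were lower by 2 (1.74%, against 2.17%). These shares are near those of all probe sets, and no family is set apart by so few calls. The number of calls rested on single arrays, with 11 without young replicate 3 (beside 7.32% of all probe sets in that fit), and 4 without old replicate 5 or without old CR replicate 2, 6 or 7 (beside 2.32% to 3.36%). It was 0 once this quality measure entered the fit as a covariate, and in that fit no probe set was called among all 22626, so the loss was not particular to the members. With each array centred on its median, 3 probe sets were higher and 3 lower, beside 4.89% of all probe sets called in that fit. In bulk muscle, fewer cells of a type and less RNA per cell cannot be told apart.

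**Figure D1:**
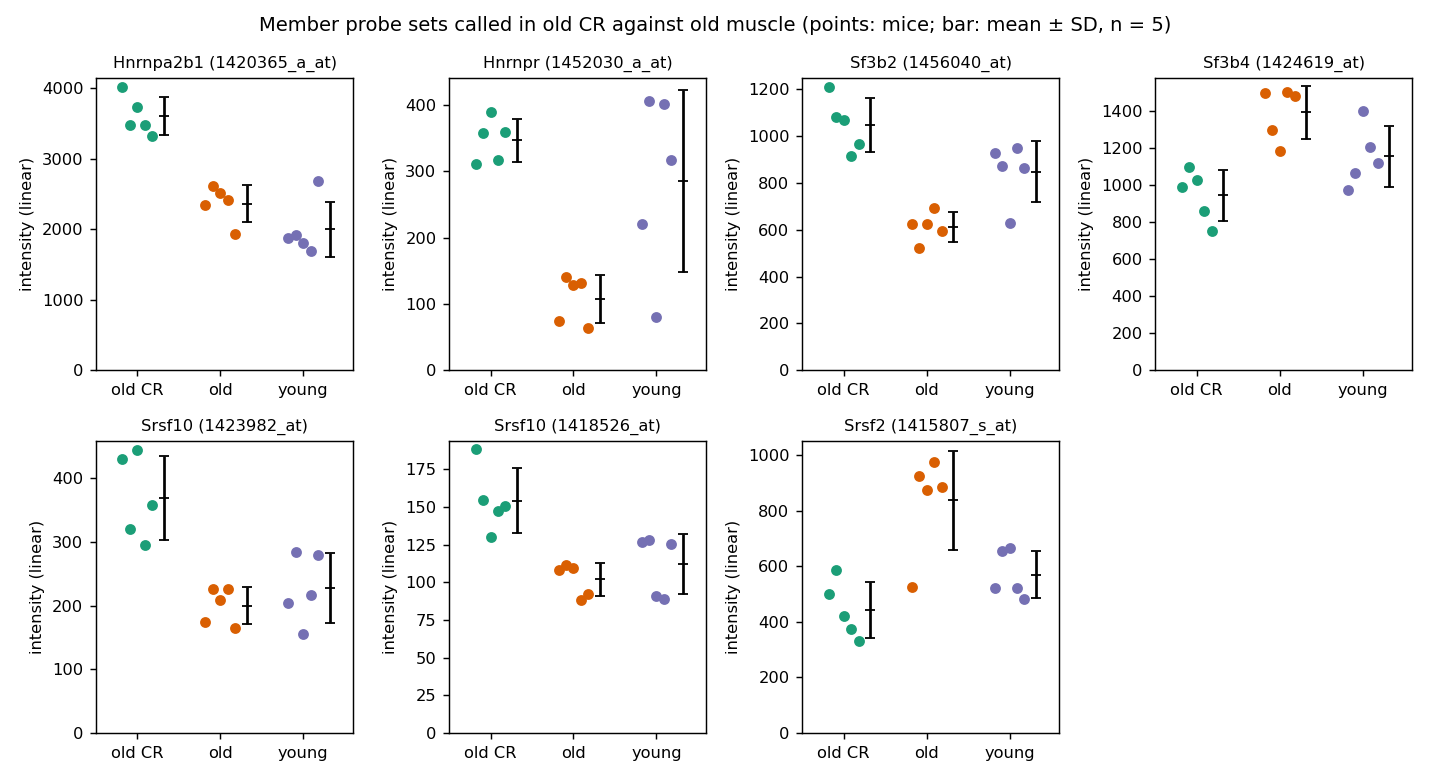
Linear intensity of the 7 member probe sets called in old CR against old muscle, 1 panel each with its own axis from 0, in old CR, old and young mice (points, 1 per mouse; bar, mean ± SD, n = 5). Old CR mice sit apart from old mice in 6 panels, and in the panel of Srsf2 old replicate 1 (526) lies within the old CR range.

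Hnrnpr, an hnRNP closely related to hnRNP Q, had the largest change among called members by the probe set 1452030_a_at. It gave 311, 358, 390, 317 and 360 in old CR muscle, against 73.5, 140, 128, 132 and 64.2 in old muscle. All 5 old CR mice lay above all 5 old mice, and the log2 difference was 1.76 ± 0.38 (SE, limma adjusted p = 0.023). Young muscle had 220, 406, 81.0, 402 and 317, so that young replicate 3 lay with the old mice and the other young mice with old CR. The log2 difference of old against young was -1.27 ± 0.38 (limma adjusted p = 0.14), and over the alternatives it lay between -1.67 without young replicate 3 (limma adjusted p = 0.0030) and -0.09 with the 3' minus 5' covariate (limma adjusted p = 0.99). The other probe sets of Hnrnpr were not called. In old CR against old muscle 1437526_x_at gave 0.21 and 1427129_a_at gave 0.00, and against young muscle the old mice gave 0.36 and 0.29. The 6 arrays with a mean 3' minus 5' value above 0 were the 6 with the lowest 1452030_a_at signal, and in the fit with this covariate old CR against old was 0.13 (limma adjusted p = 0.98). The call was also lost without old replicate 5 (limma adjusted p = 0.053).

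Hnrnpa2b1 encodes the A2 and B1 proteins, which bind pre-mRNA and also take part in mRNA transport. Its brightest probe set, 1420365_a_at, gave 4018, 3482, 3730, 3481 and 3324 in old CR muscle, against 2339, 2614, 2508, 2416 and 1927 in old muscle. The groups did not overlap, with a log2 difference of 0.62 ± 0.14 (SE, limma adjusted p = 0.026). Young muscle gave 1882, 1918, 1802, 1698 and 2679, all below the old CR mice. Against young muscle the old CR mice were higher by 0.87 ± 0.14 on the log2 scale (limma adjusted p = 0.041), and this was the only member call in that comparison. Old muscle lay between the other groups by its mean and was 0.25 above young muscle on the log2 scale (limma adjusted p = 0.40). The other 3 probe sets of Hnrnpa2b1 were also above 0 in old CR against old, at 0.05 to 0.39, and in old CR against young, at 0.36 to 0.51, without passing the test. The call against old muscle was lost without old replicate 5 (limma adjusted p = 0.057), old CR replicate 2 (0.050) or old CR replicate 5 (0.055), and with each array centred on its median (0.054). With the 3' minus 5' covariate the log2 difference was 0.58 against old and 0.86 against young muscle, with limma adjusted p-values of 0.80 and 0.099.

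Among the SR proteins, Srsf10, also known as SRp38, is a splicing repressor when it is dephosphorylated. All 4 of its probe sets had log2 differences above 0 in old CR against old muscle, and 2 were called. The probe set 1423982_at gave 430, 321, 444, 295 and 358 in old CR muscle, against 174, 226, 209, 227 and 165 in old muscle, a log2 difference of 0.88 ± 0.19 (SE, limma adjusted p = 0.021). Young mice, at 204, 284, 155, 216 and 280, overlapped the old mice and did not reach the old CR range. The probe set 1418526_at gave 189, 154, 130, 147 and 151 in old CR muscle, against 108, 112, 110, 88.5 and 92.1 in old muscle, with a log2 difference of 0.59 ± 0.15 (SE, limma adjusted p = 0.038). That call was lost in 9 of the 15 fits without 1 array, all of them without an old or an old CR array, at limma adjusted p-values of 0.057 to 0.080, and with median centring (0.068), quantile normalization (0.092) or a variance trend (0.11). The probe set 1418527_a_at had the widest difference, 2.24 ± 0.61, but missed the threshold (limma adjusted p = 0.051). It gave 194, 222, 167, 128 and 214 in old CR muscle, against 21.1, 68.2, 76.7, 108 and 6.96 in old muscle, with old replicates 1 and 5 far below the other old mice. Young muscle gave 149, 141, 47.0, 92.7 and 143, with replicate 3 again the lowest. With the 3' minus 5' covariate the differences of the called probe sets were 0.32 for 1423982_at and 0.48 for 1418526_at, with limma adjusted p-values of 0.91 and 0.84. The brightest Srsf10 probe set, 1449121_at, had a mean log2 difference of 0.37 against old muscle (limma adjusted p = 0.25) and of 0.66 against young muscle (limma adjusted p = 0.17). In old against young muscle the 4 probe sets of Srsf10 ran from -1.46, the lowest of all member probe sets, to 0.29. Of these, 1 was above 0 and none was called.

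Srsf2, or SC35, an SR protein found in nuclear speckles, was the called member with the largest fall. By 1415807_s_at it gave 501, 586, 422, 376 and 331 in old CR muscle, against 526, 925, 875, 977 and 887 in old muscle. Old replicate 1 lay within the old CR range and the other old mice well above it, and the log2 difference was -0.92 ± 0.20 (SE, limma adjusted p = 0.022). Young muscle gave 523, 656, 665, 522 and 483, below all old mice but replicate 1, and old against young was 0.54 ± 0.20 (SE, limma adjusted p = 0.21). The call in old CR was lost without old replicate 2 (limma adjusted p = 0.054), old replicate 3 (0.052), old CR replicate 6 (0.050) or old CR replicate 7 (0.051). The other 3 probe sets of Srsf2 ran at -0.58, -0.33 and 0.33 in old CR against old muscle. The positive one, 1427816_at, gave -0.02 in old against young muscle. The brightest, 1427504_s_at, gave 2835, 4695, 2839, 4227 and 2433 in old muscle and 1784, 2241, 1799, 2377 and 2678 in young muscle (log2 difference 0.62, limma adjusted p = 0.17). With the 3' minus 5' covariate, 1415807_s_at gave -0.74 in old CR against old (limma adjusted p = 0.81).

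Sf3b2 and Sf3b4 are subunits of SF3b and moved in opposite directions. Sf3b2 by 1456040_at gave 1212, 1080, 1070, 915 and 967 in old CR muscle, against 624, 521, 627, 694 and 593 in old muscle. The groups did not overlap, and the log2 difference of 0.78 ± 0.14 had the smallest adjusted p of all members (SE, limma adjusted p = 0.011). It passed in each fit that left out 1 array, as 1423982_at of Srsf10 did. Young muscle gave 927, 873, 628, 951 and 863, with replicate 3 among the old mice and the others above them, at or below the lower old CR values. Old against young was -0.46 ± 0.14 (limma adjusted p = 0.13), and it was -0.57 without young replicate 3 (limma adjusted p = 0.018) and -0.24 with the 3' minus 5' covariate (limma adjusted p = 0.90). A second probe set, 1456352_a_at, was also higher without overlap in old CR than in old muscle, at 0.55 (limma adjusted p = 0.054), while 1433461_at and 1438637_x_at gave 0.04 and 0.15. With the 3' minus 5' covariate, 1456040_at gave 0.47 in old CR against old muscle (limma adjusted p = 0.82). Sf3b4 by 1424619_at gave 987, 1097, 1027, 860 and 752 in old CR muscle, against 1497, 1298, 1185, 1504 and 1479 in old muscle, with no overlap and a log2 difference of -0.57 ± 0.14 (SE, limma adjusted p = 0.036). Young muscle gave 976, 1066, 1403, 1208 and 1119 and overlapped both other groups. Its second probe set, 1436784_x_at, differed by -0.51 (limma adjusted p = 0.10). The Sf3b4 call was lost in 8 of the 15 fits without 1 array, namely without old replicate 1, 2, 4 or 5 or old CR replicate 2, 5, 6 or 7, at limma adjusted p-values of 0.052 to 0.078, and with only the 2 groups compared (0.052), and the covariate left -0.10 (limma adjusted p = 0.97).

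Outside the called members, the groups of old CR and old mice did not overlap for a few others. In all, 9 member probe sets (7.83%) were higher in every old CR mouse than in every old mouse, beside 4.86% of all probe sets, and 2 (1.74%) were lower, beside 4.04%. Snrpe, an Sm ring protein, was among the first, by 1451294_s_at, with 2556, 1915, 1714, 1599 and 1669 in old CR muscle and 1446, 1343, 1110, 1217 and 1485 in old muscle (log2 difference 0.50, limma adjusted p = 0.070). Sf3a3 by 1423811_at was higher without overlap, with a log2 difference of 0.26 (limma adjusted p = 0.25). Srsf4 by its sole probe set was lower without overlap, with a log2 difference of -0.33 (limma adjusted p = 0.12). Hnrnpul1 by its sole probe set came close to the threshold at -0.51 (limma adjusted p = 0.057). It passed in 5 of 24 alternatives. These were the fits without young replicate 3 (limma adjusted p = 0.048) or old CR replicate 3, with median centring, with a variance trend and with the brightest probe sets alone. Snrpb2, a U2 snRNP protein, had -0.61 by its brightest probe set (limma adjusted p = 0.11), and Srsf3 had -0.52 (limma adjusted p = 0.25).

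**Figure D2:**
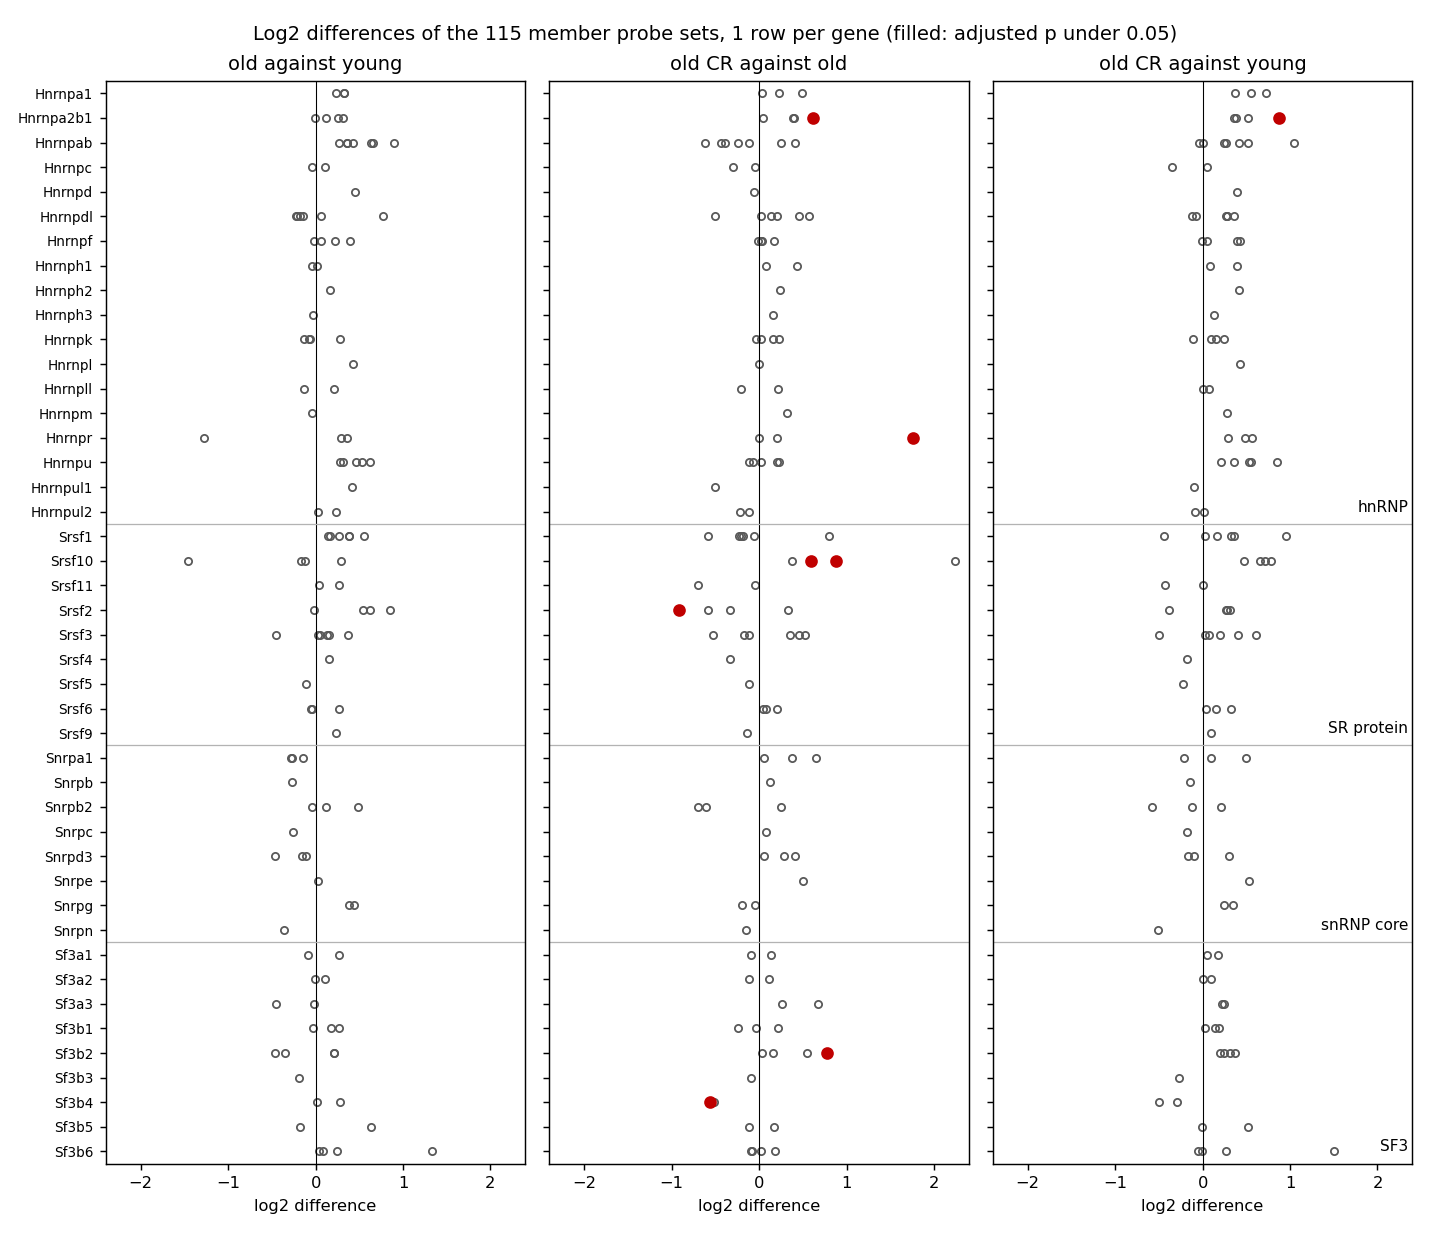
Log2 difference of each of the 115 member probe sets in the 3 comparisons, 1 row per gene grouped by family (open circles, not called; filled red, adjusted p under 0.05). Called probe sets stand only in the middle panel (7) and for Hnrnpa2b1 in the right panel. In the middle panel the probe sets of Srsf10, Hnrnpr, Srsf1 and Srsf2 are spread most widely.

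In old against young muscle, none of the 115 member probe sets was called by limma, beside 0.265% of all probe sets tested. By another method, the study listed probe sets of Hnrnpab, Hnrnpd, Hnrnpdl, Hnrnpf, Hnrnpr, Srsf1 and Srsf2 as higher with age in these samples. It listed 1452030_a_at of Hnrnpr and 1422884_at of Snrpd3 as lower. The log2 differences of these listed probe sets had the same signs here. Since the list was chosen on these samples, this is not separate evidence. At an unadjusted p under 0.05, 20 member probe sets of 13 genes were higher in old muscle (17.4%, against 6.24% of all probe sets) and 6 of 5 genes were lower (5.22%, against 9.25%). Of the 20, 12 were hnRNPs, 6 SR proteins and 2 snRNP core proteins, and none belonged to SF3. The count of calls was 5 of 115 in the fit without young replicate 3 (Hnrnpab, Hnrnpdl and Snrpg higher, Hnrnpr and Sf3b2 lower), where 4.72% of all probe sets were called, and 5 of 96 when only the brightest 48.1% of probe sets were tested, where 5.54% were called. The groups did not overlap for 3 probe sets higher in old muscle (2.61%, beside 1.61% of all) and 1 lower (0.87%, beside 2%).

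The smallest adjusted p for age belonged to Hnrnpu, also known as scaffold attachment factor A. By 1423051_at it gave 1323, 1473, 1358, 1984 and 1211 in old muscle, against 1086, 732, 842, 998 and 1119 in young muscle, a log2 difference of 0.62 ± 0.16 (SE, limma adjusted p = 0.097). Every old mouse lay above every young mouse, and the old CR mice, at 1609, 1528, 1813, 1675 and 1907, were above the young mice as well (0.85, limma adjusted p = 0.059). All 5 Hnrnpu probe sets were above 0 in both comparisons with young muscle, at 0.28 to 0.62 for old and 0.21 to 0.85 for old CR. Hnrnpab, which binds both RNA and DNA, was above 0 by all 7 of its probe sets in old against young muscle, at 0.26 to 0.89. Its probe sets 1459880_at and 1431349_at were dim, with means of 41.9 and 6.92 over all arrays. The 7 probe sets of Hnrnpab followed each other little across the arrays, with a median pairwise correlation of 0.14. Its 1448144_at gave 372, 739, 406, 640 and 522 in old muscle and 329, 258, 434, 240 and 190 in young muscle, and young replicate 3 with 434 was the only young value within the old range (0.89 ± 0.25, SE, limma adjusted p = 0.11). In old CR muscle this probe set had 439, 389, 289, 261 and 333, or -0.62 against old (limma adjusted p = 0.16).

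Hnrnpdl, a relative of hnRNP D, depended on young replicate 3 as well. By its brightest probe set, 1424251_a_at, it gave 5037, 5768, 5692, 6095 and 5495 in old muscle, against 2752, 3097, 5827, 2829 and 2728 in young muscle. Without young replicate 3, whose 5827 lay among the old values, the log2 difference of 0.77 ± 0.21 (SE, limma adjusted p = 0.11) became 0.98 (limma adjusted p = 0.0030). Old CR mice had 5516, 4345, 3535, 3447 and 3340, mostly between the groups. The other 5 probe sets of Hnrnpdl lay at -0.22 to 0.07 in old against young muscle. With the 3' minus 5' covariate the difference of 1424251_a_at was 0.13 (limma adjusted p = 0.96).

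Further members with larger values in old than in young muscle were Srsf1, Srsf2, Hnrnpd, Hnrnpf and Snrpb2, none of them called. Srsf1, or ASF/SF2, the founding SR protein, was above 0 by all 6 of its probe sets, at 0.14 to 0.55, and 1428099_a_at gave 474, 757, 634, 623 and 622 in old muscle against 364, 431, 484, 370 and 466 in young muscle (0.55, limma adjusted p = 0.16). The groups overlapped only in old replicate 1 and young replicate 3. Hnrnpd, or AUF1, which binds AU-rich elements of mRNA, had 491, 831, 793, 535 and 586 in old muscle and 512, 519, 429, 428 and 429 in young muscle (0.46, limma adjusted p = 0.20). Hnrnpf by its brightest probe set had a log2 difference of 0.40 (limma adjusted p = 0.25), with 1136, 1674, 1231, 1138 and 1051 in old muscle and 901, 1158, 1056, 760 and 843 in young muscle. Snrpb2 by 1426613_a_at had a log2 difference of 0.49 (limma adjusted p = 0.29). Hnrnpul1 was higher in every old mouse than in every young mouse, with 1053 to 1302 in old and 775 to 1048 in young muscle (0.41, limma adjusted p = 0.18). Sf3a2, of the SF3a complex, had 1998 to 2923 in old and 1946 to 2415 in young muscle by its brightest probe set (0.11, limma adjusted p = 0.76). Within each family, the lowest log2 difference of a gene's brightest probe set was -0.14 for Hnrnpll among the hnRNPs, -0.11 for Srsf5 among the SR proteins, -0.36 for Snrpn in the snRNP core and that of Sf3b2 given above in SF3 (limma adjusted p = 0.73, 0.79, 0.61 and 0.13). Srsf5 ran at 3032 to 5108 in old and 3616 to 5103 in young muscle. Snrpb, the Sm protein B, was lower without overlap, with 2255, 2376, 2319, 2620 and 2017 in old muscle and 2688, 2785, 2762, 3056 and 2694 in young muscle (-0.27, limma adjusted p = 0.21). Snrpd3, another Sm protein, had -0.46 by 1422884_at, with 406 to 773 in old and 655 to 904 in young muscle (limma adjusted p = 0.44).

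Old CR muscle compared with young muscle held 1 call among the members, Hnrnpa2b1 (0.87%, beside 0.0884% of all probe sets). This call was kept without young replicate 5, old replicate 5, old replicate 4 or old CR replicate 7, and lost without each of the other 11 arrays, at limma adjusted p-values of 0.055 to 0.12. At an unadjusted p under 0.05, 20 member probe sets of 12 genes were higher (17.4%, beside 5.83% of all) and 2 lower (1.74%, beside 6.26%). In 11 probe sets (9.57%, beside 1.68% of all) every old CR mouse lay above every young mouse, and in 1 (0.87%, beside 1.89%) every one lay below. The first were 2 probe sets each of Hnrnpu and Srsf10 and 1 each of Hnrnpa1, Hnrnpa2b1, Hnrnpd, Hnrnph2, Snrpa1, Snrpe and Srsf1, and the last was Snrpb. Hnrnpa1, which represses many exons, gave 863, 868, 763, 913 and 825 in old CR muscle by 1436549_a_at, against 646, 485, 678, 562 and 520 in young muscle (0.56, limma adjusted p = 0.12). Old muscle, at 668, 820, 678, 863 and 603, overlapped both. Srsf1 by 1428100_at had 737, 577, 442, 495 and 519 in old CR muscle and 205, 353, 320, 174 and 434 in young muscle (0.96, limma adjusted p = 0.19), while 1430982_at of the same gene gave -0.44.

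**Figure D3:**
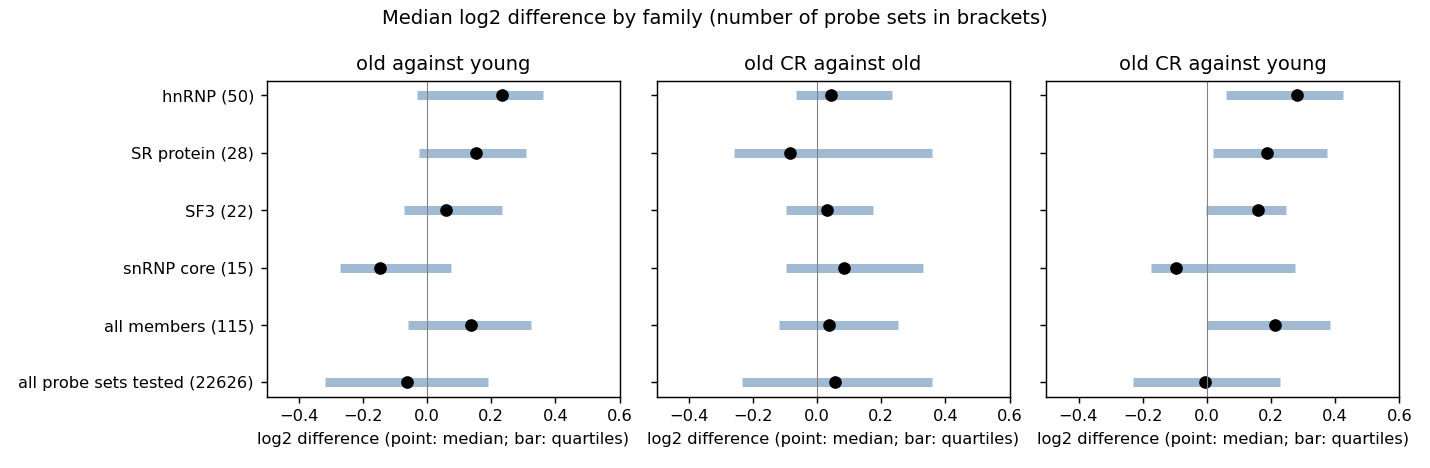
Median (points) and quartiles (bars) of the log2 difference over the probe sets of each family, over all 115 members and over all 22626 probe sets tested, in the 3 comparisons. The hnRNP median is at 0.23 in old against young and 0.28 in old CR against young, and the snRNP core median at -0.15 and -0.10.

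By medians, the members stood above all probe sets in both comparisons with young muscle. In old against young the median log2 difference was 0.14 over the members, with 73 of 115 above 0, against -0.06 over all probe sets. By family it was 0.23 for hnRNPs, 0.15 for SR proteins, 0.06 for SF3 and -0.15 for the snRNP core. In old CR against young it was 0.21, with 86 of 115 above 0 (74.8%, beside 49.2% of all probe sets), against -0.01 over all. Here the hnRNPs had 0.28, with 42 of 50 above 0, the SR proteins 0.19, SF3 0.16 and the snRNP core -0.10. In old CR against old the members had 0.04 and all probe sets 0.06, and the families lay between -0.08 for SR proteins and 0.08 for the snRNP core. The 2 comparisons with young muscle share the young arrays. With 1 probe set per gene, the brightest, the median was 0.16 in old against young, -0.04 in old CR against old and 0.11 in old CR against young over the 44 genes, and 14 and 16 of 18 hnRNP genes were above 0 in the comparisons with young muscle. Members had a median intensity of 576, against 221 over all probe sets, and a median SD within groups of 0.28 against 0.39 on the log2 scale, although intensities of different probe sets are not on 1 scale of transcript number. Among the brightest 48.1% of probe sets, which hold 96 of the members, the median of all was -0.01 in old against young, -0.01 in old CR against old and -0.02 in old CR against young.

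Several probe sets read the same gene in 30 of the 44 cases, and they often differed. Their log2 differences had both signs in 18 of the 30 genes in old against young, in 16 in old CR against old and in 16 in old CR against young. All were above 0 in 9, 9 and 13 genes and all below 0 in 3, 5 and 1. The median span between the lowest and the highest was 0.35, 0.42 and 0.38. The widest spans in old CR against old muscle were those of Srsf10 (1.87), Hnrnpr (1.76), Srsf1 (1.38) and Srsf2 (1.25). Within Srsf1 the range was -0.59 to 0.80 in that comparison. Across the 15 arrays the probe sets of 1 gene followed each other for Hnrnpa2b1, with pairwise Pearson correlations of 0.57 to 0.82, but not for Hnrnpr, at -0.21 to 0.64, or Srsf2, at -0.20 to 0.63. These correlations describe probe sets on the same arrays, which share scaling and RNA quality. Probe sets can read different 3' ends or isoforms of a gene, and which of these each one reads was not tested.

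**Figure D4:**
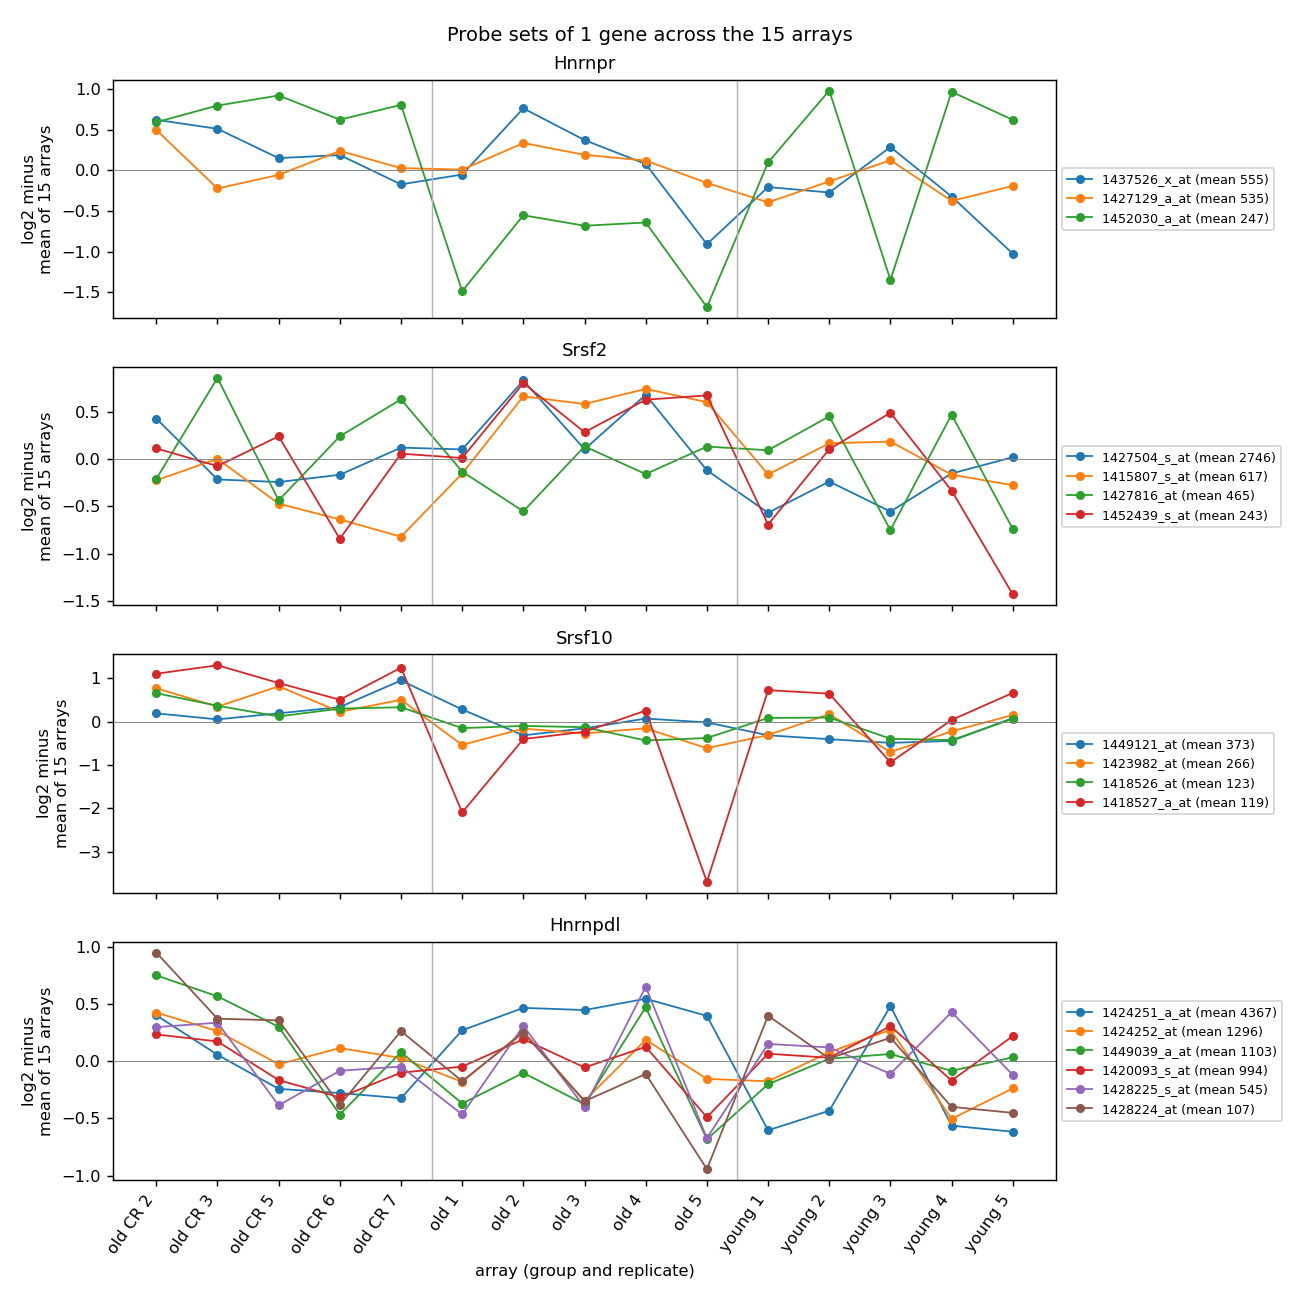
Log2 intensity of every probe set of Hnrnpr, Srsf2, Srsf10 and Hnrnpdl on the 15 arrays, each minus its own mean over the arrays (lines, 1 per probe set, with the mean linear intensity in the legend; arrays run old CR, old, young). The Hnrnpr probe set 1452030_a_at drops on the 5 old arrays and on young replicate 3, whereas 1427129_a_at of that gene does not.

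The median deviation of the 115 members from their means over the 15 arrays was 0.00 to 0.23 in old CR mice, -0.09 to 0.21 in old mice and -0.17 to -0.01 in young mice, on the log2 scale. All 5 young arrays lay below 0 and all 5 old CR arrays above it, while the old arrays fell on both sides, with old replicates 2 (0.21) and 4 (0.11) high. The old CR and the young arrays did not overlap in this value and the old arrays overlapped both. The measure of RNA or labelling quality separated the arrays in another way, with old arrays at 0.05 to 0.27, old CR arrays at -0.42 to -0.21 and young arrays at -0.28 to 0.06.

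**Figure D5:**
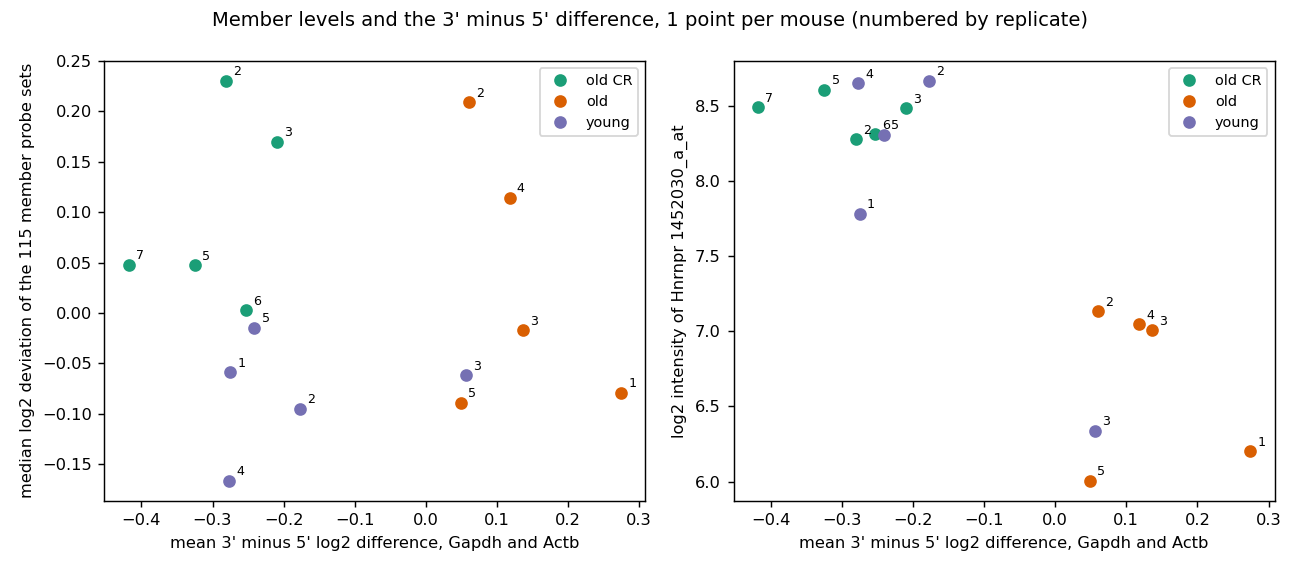
Left, median log2 deviation of the 115 members, and right, log2 intensity of the Hnrnpr probe set 1452030_a_at, on each of the 15 arrays, both against the 3' minus 5' log2 value averaged over Gapdh and Actb (points, 1 per mouse, numbered by replicate). On the right the 5 old arrays and young replicate 3 stand apart with a low Hnrnpr signal, and on the left the members' median shows no such separation.

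Other genes of the splicing pathway were taken from a list of 144, of which 116 were measured by 274 probe sets. None was called in old against young or in old CR against young muscle, where 28 (10.2%, beside 6.24% of all probe sets) and 39 (14.2%, beside 5.83%) were higher and 24 (8.76%, beside 9.25%) and 11 (4.01%, beside 6.26%) lower at an unadjusted p under 0.05. In old CR against old muscle 9 were called higher and 5 lower, each of another gene, which is 14 of 274 (5.11%), near the 4.87% of all probe sets. None of them was called with the 3' minus 5' covariate, with which no probe set at all was called in this comparison. Each of the 14 called genes had 1 called probe set, and the values below are those of that probe set. Where such a gene had other probe sets, they were not called. The list has 7 groups of genes, and of these the paraspeckle and SR-like regulators had 6 of 69 probe sets higher (8.7%, beside 2.7% of all) and none lower (beside 2.17%), the tissue and sequence-specific regulators none of 66 higher and 3 lower, the tri-snRNP and catalytic proteins 3 of 68 higher and 2 lower, and the other groups no call. Rbm5, an RNA-binding regulator of exon choice, averaged 495 ± 77.0 in old CR and 134 ± 27.5 in old muscle (1.89, limma adjusted p = 0.045). Pnn, or pinin, averaged 284 ± 84.5 in old CR and 98.7 ± 26.3 in old muscle (1.51, limma adjusted p = 0.032). Sfpq, a paraspeckle protein, averaged 386 ± 60.0 in old CR and 195 ± 67.1 in old muscle (1.04, limma adjusted p = 0.021), and Ddx5, an RNA helicase, 1320 ± 143 and 805 ± 181 (0.73, limma adjusted p = 0.047). Luc7l (1.06), Rbm25 (0.99), Ppie (1.48), Prpf39 (0.78) and Xab2 (1.16) were higher as well. Young replicate 3 was the lowest young array for Rbm5 (44.3), Pnn (74.5) and Xab2 (98.1), within or below the range of the old mice. Lower in old CR than in old muscle were Pcbp1 (-0.72), the muscle splicing regulators Rbfox1 (-0.53) and Celf2 (-0.85), and Prpf8 (-0.89) and Dhx16 (-0.63) of the catalytic machinery. Rbfox1 averaged 2635 ± 417 in old CR and 3773 ± 227 in old muscle (SD, n = 5, limma adjusted p = 0.048), and Prpf8, the central scaffold of the spliceosome, 1022 ± 222 and 1898 ± 469 (limma adjusted p = 0.028). The list's median was 0.02 in old against young, 0.10 in old CR against old and 0.10 in old CR against young muscle.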

How the data were processed

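Each of the 15 mice had its own MOE430A array of gastrocnemius poly(A)+ RNA. Per the labels' processing notes the authors used MAS5 and RMA (versions not given in the sources used here) and averaged repeated scans. The deposited values are linear intensities, 1 per probe set and array. The mean after trimming 2% at each end is 500 on every array while the quartiles differ, which is array-by-array scaling and not RMA. They were used as deposited, on the log2 scale and without a pseudocount, and 64 control probe sets of 22690 entered no test. A single symbol was annotated for 20393 probe sets, several symbols for 691 and no symbol for 1606.

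A linear model per probe set over the 3 groups (limma 3.58.1 under R 4.3.3, eBayes without trend, prior degrees of freedom 2.17) gave p-values with Benjamini-Hochberg adjustment over the 22626 probe sets. EBarrays, which the methods name, was not used. Probe sets were named if called, if on the study's list of age changes (which was chosen on these samples), or if the brightest of the gene with the largest rise or fall in a family, together with the other probe sets of those genes and the brightest member of each family. Members described for groups without overlap were chosen after their values were seen, as were the other splicing genes shown with means. The members and the gene lists were chosen with earlier results of these data known. The 3' minus 5' differences were compared with exact permutation tests. The scripts were tested on simulated data. Promoter motifs were counted and figures drawn in Python 3.11.15 with pandas 2.3.3 and Matplotlib 3.10.9. Arrays have no read depth, so their number limits the precision. The labels describe the replicates as different animals.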

Additional observations from a re-analysis of the deposited data

Results flagged for a closer look

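Of the 69 groups of 5 values checked among 23 named probe sets, 6 (8.70%) had 1 mouse far from the others by Dixon's test, in which chance gives about 1 in 20. None of 9 further groups, of the members' median and of the 3' minus 5' differences, had one. Young replicate 3 was such a mouse for 2 probe sets, high for Hnrnpdl 1424251_a_at (5827, with the nearest young mouse at 3097) and low for Sf3b2 1456040_at (628, nearest 863). Old replicate 1 was low for Srsf2 1415807_s_at (526, nearest 875). Young replicate 5 was high for Hnrnpa2b1 1420365_a_at (2679, nearest 1918), and young replicate 2 was low for Snrpb2 1426613_a_at (330, nearest 515). Old CR replicate 6 was high for Snrpn 1432096_at (61.2, nearest 26.2), a dim probe set of an Sm protein gene.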

How the results depend on the processing

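Without 1 array at a time the number of members called ran between 0 and 5 in old against young, between 4 and 11 in old CR against old and between 0 and 2 in old CR against young. Of all probe sets, 0% to 4.72%, 2.04% to 7.32% and 0.0309% to 0.15% were called in those fits, in the same order. With the brightest 48.1% of probe sets alone the counts were 5, 14 and 4, and at an adjusted p under 0.10 they were 1, 12 and 2. A variance trend gave 2 in both comparisons with young muscle (beside 1.85% of all probe sets for old and 0.667% for old CR). Array weights gave 4 in old against young (beside 3.4%), and log2(value + 16) gave 2 in old CR against young (beside 0.181%). Old CR against young had 0 calls with median centring (beside 0.053% of all) and 0 with only the 2 groups compared (beside 0.0265%). Counting 1 probe set per gene, old CR against old had 3 of 44. With the 3' minus 5' covariate old CR against old and old CR against young had 0 calls each, with 0 and 8 calls over all probe sets. The replicate block gave 0 members in both, but the labels do not say that a number marks a pair and the deviations of same-numbered arrays correlated at only -0.12 to 0.07, so the numbers are not taken as pairs. The causes were not tested. Median centring gave 3 calls higher and 3 lower in old CR against old, where the values as deposited gave 5 and 2. It called 4.89% of all probe sets there and turned the members' median to -0.05. Of the called values for old CR against old, Sf3b2 1456040_at and Srsf10 1423982_at passed in 22 of 24 alternatives, Hnrnpr in 21, Hnrnpa2b1 in 18, Srsf2 in 18, Sf3b4 in 13 and Srsf10 1418526_at in 9 of 23.

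The members' median log2 difference without 1 array was 0.08 to 0.16 in old against young, 0.00 to 0.08 in old CR against old and 0.18 to 0.26 in old CR against young. The Gapdh 3' minus 5' difference of old against young was 0.25 to 0.37 without 1 array, and passed the threshold without young replicate 3. Signs turned with the covariate in old against young for Hnrnpr 1437526_x_at (-0.26), Sf3b4 1424619_at (-0.064) and Srsf5 1423130_a_at (0.20), and with the replicate block in old CR against young for Hnrnpul1 (0.0049). None of these had been called.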
